A study of Caenorhabditis elegans with 2 samples.

Results

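The rps genes of Caenorhabditis elegans encode the proteins of the small (40S) subunit of the cytosolic ribosome. They were taken as all protein-coding genes of the WBcel235 annotation whose name is rps- followed by a number, which gave 31 of 19973 nuclear protein-coding genes. The data were chromatin immunoprecipitation sequencing (ChIP-seq) peak lists for EFL-1 in whole young adult hermaphrodites of strain YL478, a transgenic line in which EFL-1 is expressed with GFP and FLAG fused to its C-terminal end. All samples formed a single group of 2 biological replicates precipitated, per their descriptions, with an antibody to GFP, while another label names efl-1 as the antibody, and the age is labelled unknown. There was no second condition, so nothing below is a change, and a control library named in the labels was not analysed here. Chromatin came from whole animals, so occupancy in many cells and strong occupancy in few cells cannot be told apart.

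EFL-1 is an E2F family transcription factor. E2F proteins bind DNA with a DP partner and act with retinoblastoma family proteins, in the worm DPL-1 and LIN-35, and are best known for the control of cell cycle and germline genes. The 40S subunit has a head, which closes over the mRNA and tRNA sites, and a body and platform, which carry the decoding centre and the mRNA entry and exit paths. Its proteins are needed in equal numbers in every ribosome, and growing tissues such as the adult germline make them in large amounts. Many worm transcripts, including those of ribosomal protein genes, are trans-spliced to a short leader, so an annotated start can lie downstream of the point where transcription begins.

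The 9 windows that reach 50 bases to either side of a promoter summit are shown because they hold the base patterns described below or, for rps-12, the strongest peak. All are from ce11, are written 5′ to 3′ on the strand of the rps gene, and end nearest to its start. The rps-12 window (chrIII:5679077-5679177, plus strand) holds no pattern in capitals, since its E2F core lies outside the bases shown. In rps-22 (chrIII:1950365-1950465, plus), rps-3 (chrIII:6206448-6206548, plus), rps-14 (chrIII:7179807-7179907, minus) and rps-23 (chrIV:12391292-12391392, minus) capitals mark words shared by several rps peaks. In rps-5 (chrIV:11111379-11111479, minus) they mark an E2F core, TTCCCGC, and then a gapped word. In rps-9 (chrII:11126593-11126693, minus), rps-11 (chrIV:11602277-11602377, plus) and rps-25 (chrIV:5947899-5947999, minus) they mark the same gapped word and other shared words. The shared word GAAACGAG (CTCGTTTC on the other strand) in rps-5 and TTTGAA in rps-22 are left in lower case.
rps-12: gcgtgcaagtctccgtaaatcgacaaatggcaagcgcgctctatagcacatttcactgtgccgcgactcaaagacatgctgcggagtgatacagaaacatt
rps-22: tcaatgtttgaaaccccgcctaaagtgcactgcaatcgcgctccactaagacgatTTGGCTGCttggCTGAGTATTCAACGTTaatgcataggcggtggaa
rps-3: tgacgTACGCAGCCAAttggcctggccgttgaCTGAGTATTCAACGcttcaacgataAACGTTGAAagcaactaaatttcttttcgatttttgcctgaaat
rps-14: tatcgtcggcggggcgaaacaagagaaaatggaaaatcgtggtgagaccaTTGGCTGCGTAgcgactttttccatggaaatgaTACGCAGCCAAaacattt
rps-23: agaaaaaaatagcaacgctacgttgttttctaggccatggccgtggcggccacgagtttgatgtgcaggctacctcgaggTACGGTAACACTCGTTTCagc
rps-5: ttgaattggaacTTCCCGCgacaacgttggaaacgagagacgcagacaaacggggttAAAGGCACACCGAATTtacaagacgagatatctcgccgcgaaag
rps-9: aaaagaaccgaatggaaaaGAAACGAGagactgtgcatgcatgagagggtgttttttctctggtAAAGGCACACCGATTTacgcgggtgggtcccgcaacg
rps-11: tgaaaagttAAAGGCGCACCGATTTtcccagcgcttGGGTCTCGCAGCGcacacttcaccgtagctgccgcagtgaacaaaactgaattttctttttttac
rps-25: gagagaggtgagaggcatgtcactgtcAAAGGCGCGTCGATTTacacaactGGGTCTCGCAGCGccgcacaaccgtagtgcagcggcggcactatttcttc

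A promoter peak was counted where the summit of a peak in the authors' optimal list lay within 500 bp of an annotated start of the gene. By that count 27 of the 31 rps genes had one, or 87.1% (exact 95% binomial interval 70.2 to 96.4%, counting error only), beside 10.9% of all genes. The 27 genes had 27 different peaks, none with more than 1 and none shared between 2 rps genes. The count rested on the window and on how a summit was assigned. Within 200 bp of a start there were 4 rps genes, or 12.9% (5.92% of all genes). Within 1000 bp there were 30, or 96.8% (13.8% of all genes). When each summit was given to its nearest start alone, 16 rps genes, or 51.6%, kept a peak (8.75% of all genes).

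**Figure D1:**
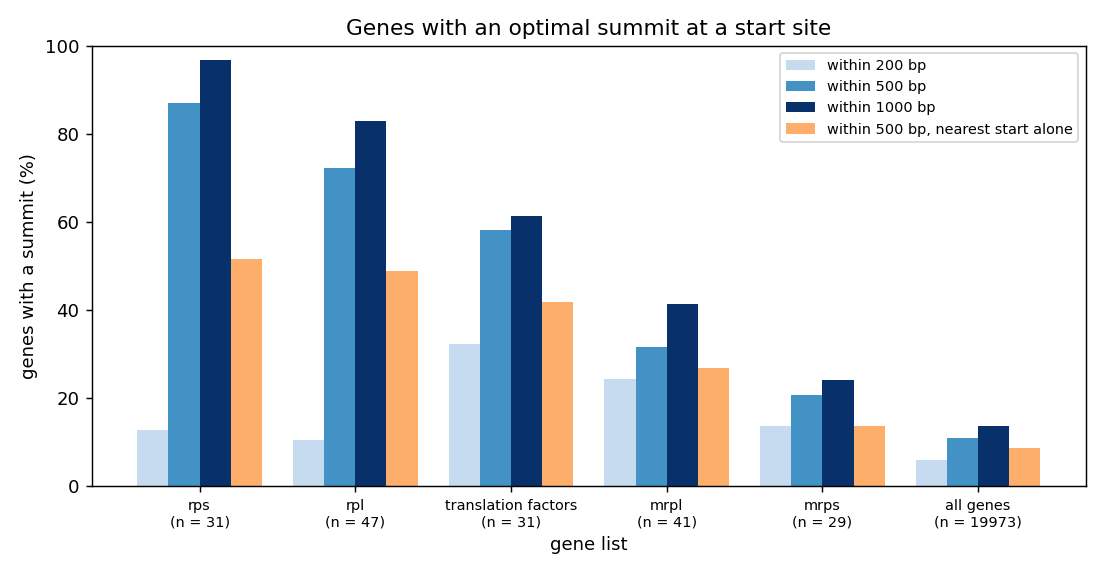
Percentage of genes with an optimal summit near a start, as bars for each gene list (number of genes in brackets), with 3 windows and with each summit given to the nearest start alone. The rps bars go from 12.9% within 200 bp to 87.1% within 500 bp and 96.8% within 1000 bp.

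Peak strength is the authors' signal value, of a scale that none of the sources used here states, so strengths of different peaks are compared only within a list. Where the replicate lists are set side by side for the same peak, the values are as deposited, and whether the lists share a scale is not stated. The median over the 27 rps peaks was 113 in the optimal list (quartiles 63.5 and 163, range 46.2 to 501). The median over all genes with a promoter peak was 93.4, and that over all 2802 nuclear optimal peaks was 78.4, with a lowest value of 40.1. Of the 27 rps peaks, 18 were above this last median and 3 were among the strongest 280. Their ranks ran from 146 to 2439 of 2802, with a median of 929, so the rps peaks were spread through the list.

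Of 13 rps genes for proteins of the head, 12 (92.3%) had a promoter peak, with a median signal of 114. The strongest peak of all rps genes was at rps-12, which encodes eS12, a protein of the beak, with a signal of 252 in replicate 1 and 249 in replicate 2 and 501 in the optimal list (rank 146). At rps-19, whose human counterpart is mutated in Diamond-Blackfan anaemia, the signal was 179 in replicate 1 and 205 in replicate 2 (387 in the optimal list). These 2 genes were the highest in both replicates among the head genes. At rps-15, whose product lies in the head near the decoding site, the values were 161 and 102 (253 in the optimal list). At rps-28, whose product lies near the mRNA exit channel, they were 76.7 and 94.7 (166). At rps-20, for uS10, they were 88.1 and 55.6 (143). The replicates put rps-28 and rps-20 in opposite orders, so these neighbours did not differ beyond the spread between replicates.

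The other head genes were lower. At rps-10 the signal was 56.4 in replicate 1 and 58.6 in replicate 2, and at rps-17 it was 40.4 and 67.2. At rps-16, for uS9, whose tail reaches the P-site tRNA, it was 82.7 and 36.0, the widest ratio between the deposited replicate values among the 27 genes (2.3). At rps-3, which lines the mRNA entry channel, it was 34.0 and 48.5, and at rps-5, near the exit-site tRNA, it was 33.2 and 31.4. The lowest head genes were rps-18, with 42.9 and 21.8, and rps-25, with 23.2 and 24.9. In yeast and human cells the rps-25 counterpart is known for its role in internal ribosome entry. The remaining head gene, rps-29, which encodes a zinc-binding protein, had no promoter peak.

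Of 18 genes for proteins of the body and platform, 15 (83.3%) had a promoter peak, with a median signal of 102. The strongest was at rps-22, for uS8, a protein that binds the central domain of 18S rRNA, with 191 in replicate 1 and 127 in replicate 2 (316 in the optimal list, rank 264). At rps-1, for a platform protein, the signal was 106 and 144 (255), and at rps-23, for uS12, a protein of the decoding centre, it was 138 and 104 (236). The replicates gave rps-22, rps-1 and rps-23 in different orders. At rps-0, related to the laminin receptor precursor, the signal was 92.5 and 75.3 (161), and at rps-26, which contacts mRNA upstream of the start codon in yeast, it was 95.6 and 63.1 (159). Those 5 genes stood above the other body and platform genes in the optimal list, where the next was rps-24 at 116 (79.4 and 42.6).

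Below them, rps-14 had 61.9 in replicate 1 and 50.2 in replicate 2, rps-30 had 66.3 and 33.6, and rps-4 had 57.7 and 40.5. The rps-6 peak had 42.2 and 24.5; its product is the classic substrate of S6 kinase in the TOR pathway. At rps-21 the values were 29.5 and 48.7, the only body or platform gene besides rps-1 and rps-9 with the higher deposited value in replicate 2. The lowest 4 were rps-13 (33.4 and 32.0), rps-7 (35.3 and 18.9), rps-9 (26.6 and 27.1) and rps-11 (25.1 and 22.5). In bacteria the counterparts of the rps-9 and rps-11 products bind small subunit rRNA early in assembly. Head and body genes covered overlapping ranges, 46.2 to 501 and 47.8 to 316 in the optimal list.

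**Figure D2:**
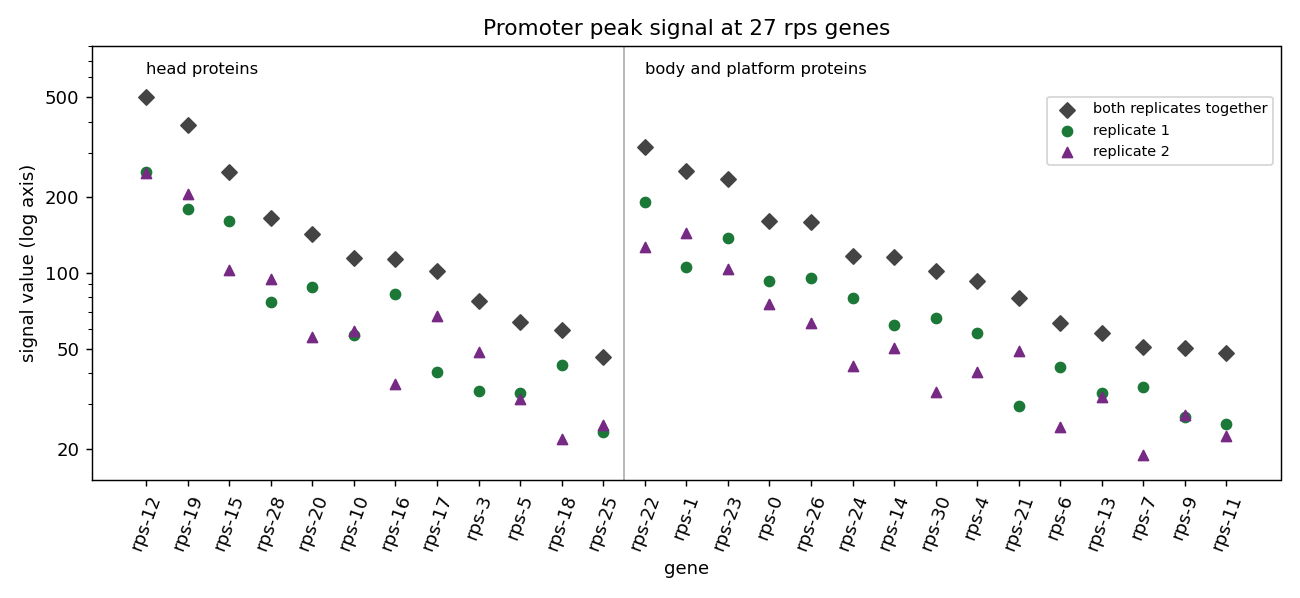
Signal value (log axis) of the promoter peak at each of 27 rps genes, in the optimal list made from both replicates (diamonds), in replicate 1 (circles) and in replicate 2 (triangles), for head proteins on the left and body and platform proteins on the right. The optimal values run from 501 at rps-12 down to 46.2 at rps-25, and the order of neighbours often differs between replicates.

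Over the 27 genes the median signal was 61.9 in replicate 1 (range 23.2 to 252) and 48.7 in replicate 2 (18.9 to 249). Over all nuclear optimal peaks the medians were 45.3 and 36.4. The deposited value was the higher one in replicate 1 at 18 genes and in replicate 2 at 9, which were rps-1, rps-3, rps-9, rps-10, rps-17, rps-19, rps-21, rps-25 and rps-28. It was the higher one in replicate 1 at 67.5% of the 2765 nuclear optimal peaks with a value in both replicates. Taken as deposited, the 2 values differed by at most 2-fold at 26 of the 27 genes (82.3% of optimal peaks), with a median ratio of 1.42. Ranked by signal, the 2 replicates gave a Spearman rho of 0.801 over the 27 genes and 0.718 over the optimal peaks with a value in both. This is a description of points that share their libraries. In 25 of the 27 (92.6%) the peak lay on one of the 2802 strongest nuclear regions of both replicates, beside 77% of all genes with a promoter peak and 71.5% of all nuclear optimal peaks. The exceptions were rps-7, at rank 3065 in replicate 2, and rps-25, at rank 3036 in replicate 1. Both replicate summits were within 50 bp of the optimal summit at 23 genes.

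**Figure D3:**
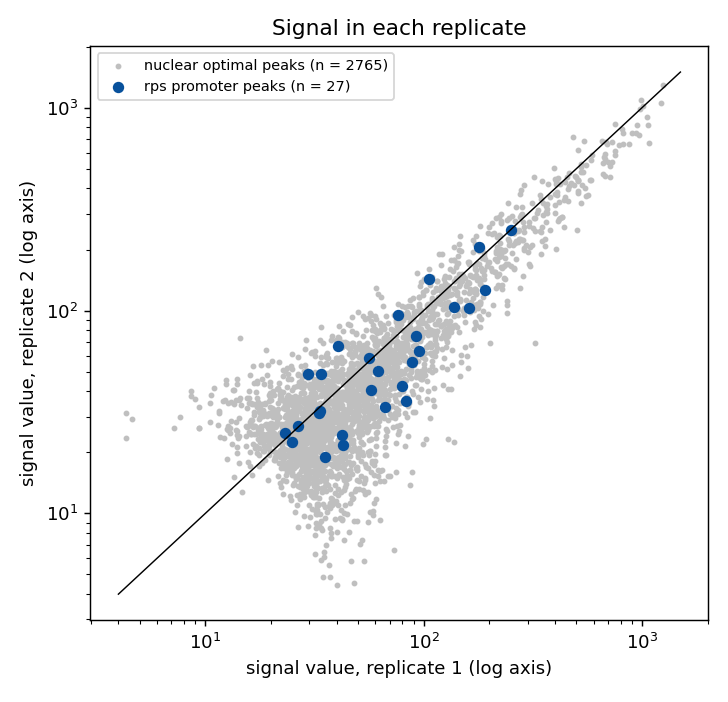
Signal in replicate 1 against signal in replicate 2 (both log axes), with the line of equal values. Grey points are the nuclear optimal peaks with a value in both replicates, and blue points are the 27 rps promoter peaks. The rps points lie close to the line in the middle of the cloud, 18 of them on the side of replicate 1.

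The rps summits lay upstream of the annotated start and away from it. The median distance was 287 bp upstream (quartiles 262 and 332), beside 172 bp for all genes with a promoter peak. The median was 267.5 bp for the rpl genes of the large subunit, 146.5 bp for mrps and 144 bp for mrpl genes of the mitochondrial ribosome, and 171.5 bp for translation factors. The summit was upstream at 26 of 27 rps genes (86.1% of genes with a peak). It lay 200 to 500 bp upstream at 23 (85.2%), beside 42.2% of all genes with a peak and 76.5% of rpl genes. Of the others, 3 lay between 100 and 200 bp upstream, at rps-22 (120 bp), rps-12 (171 bp) and rps-13 (188 bp), and none lay nearer than that on the upstream side. The farthest were rps-18 (488 bp), rps-28 (433 bp) and rps-26 (412 bp). Signal and distance went together only weakly over the 27 genes (Spearman rho −0.163).

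The exception to the upstream position was rps-16, whose summit lay 31 bp downstream of the start, in its own coding exon. The nearest upstream gene was fib-1, which encodes the nucleolar methyltransferase fibrillarin and lies on the same strand, with its 3′ end separated from the rps-16 start by a gap of 109 bp. A separate peak with a signal of 149 stood 68 bp upstream of the start of fib-1, at the far end of that gene. The only other rps summit inside an exon was that of rps-18, in an untranslated exon of sec-61.A, for the channel subunit of the secretory translocon, whose start was 73 bp from the summit. The other 25 summits were intergenic.

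**Figure D4:**
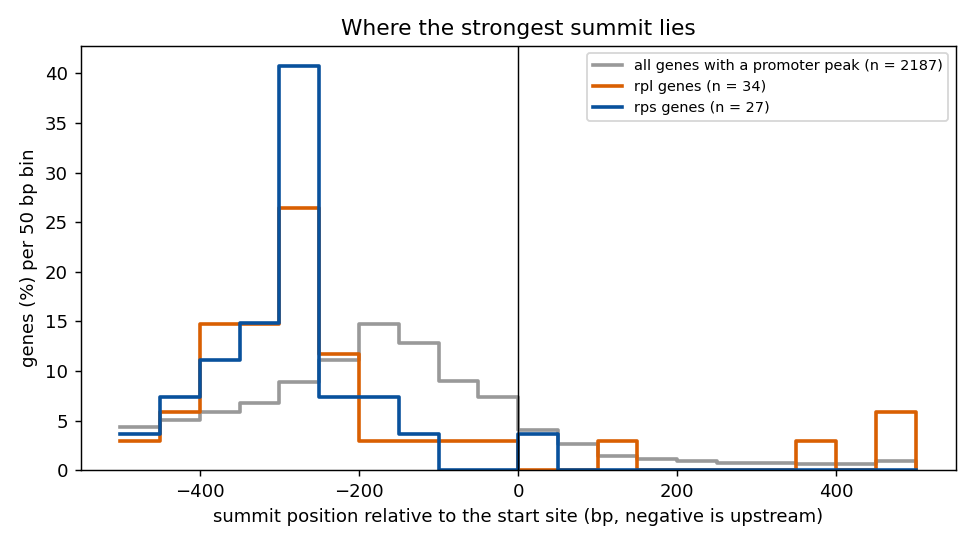
Percentage of genes per 50 bp bin by the position of the strongest promoter summit relative to the start site (bp, negative is upstream) for rps genes, rpl genes and all genes with a promoter peak (numbers in the legend). The rps line is highest between 200 and 300 bp upstream, where 13 of 27 summits lie, while the line for all genes is highest nearer to the start.

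Some annotated starts lay directly after the bases TTTCAG, the consensus of a trans-splice acceptor in worms. This was so for 17 of the 31 rps genes, beside 16.7% of all genes and 53.2% of rpl genes. Among the genes with a peak, the median summit distance was 284 bp for the 14 whose start follows TTTCAG and 289 bp for the other 13. Only an exact TTTCAG was counted, so the 2 sets do not separate trans-spliced genes from others. Any part of trans-splicing in the distance was not tested. The median signals of the 2 sets were 151 and 102, with ranges of 50.4 to 501 and 46.2 to 236 that overlapped.

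Many rps summits lay between starts that point away from each other. A protein-coding gene on the opposite strand started within 500 bp of the same summit, in divergent orientation, at 15 of the 27 genes (55.6%), beside 36.4% of all genes with a peak and 52.9% of rpl genes. The starts of the paired genes were 266 to 781 bp apart, with a median of 499 bp. The summit was nearer to the neighbour in 10 of these pairs and nearer to the rps gene in 5. The median signal was 143 with such a neighbour (50.4 to 501) and 86.3 without (46.2 to 255), and the ranges overlapped. Over all 31 genes the nearest upstream gene lay on the opposite strand in 22 (45.4% of all genes), and the median gap to it was 532 bp, beside 1156 bp for all genes.

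In 3 of the pairs the neighbour was itself a ribosomal protein gene, so that a single summit lay within 500 bp of a start of 1 gene of each subunit. These were rps-10 with rpl-24.1 (237 bp from the summit), rps-14 with rpl-36 (394 bp) and rps-30 with rpl-39 (226 bp). The summit was nearer to the rpl gene at rps-10 and rps-30 and nearer to the rps gene at rps-14, where it was 269 bp from the rps start.

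At rps-12, whose peak was the strongest, the neighbour was ska-3, for a spindle and kinetochore associated protein, 122 bp from the summit. At rps-19 it was hsr-9, for a relative of the DNA damage protein 53BP1, at 176 bp. At rps-22 it was polh-1, for a translesion DNA polymerase, at 146 bp, so these 3 strongest peaks all lay near a divergent gene of another function. At rps-15 and F36A2.9 the summit was almost midway, 390 bp from the former and 391 bp from the latter. The remaining partners were dpm-3 (rps-23), rbg-3 (rps-0), tmem-107 (rps-26), ekl-4 (rps-20), sna-3 (rps-3), usp-3 (rps-6), nfx-1 (rps-13) and lsm-1 (rps-9), the last for a subunit of the mRNA decay complex. The nearest of these were tmem-107, 45 bp from the rps-26 summit, and rbg-3, 53 bp from the rps-0 summit.

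Another protein-coding gene started nearer to the summit than the rps gene did in 11 of 27 cases, beside 20.4% of all genes with a peak. These were rps-0, rps-3, rps-6, rps-10, rps-12, rps-19, rps-20, rps-23, rps-26 and rps-30, each with a divergent neighbour, and rps-18. A non-coding gene started within 500 bp of the summit in 9 of 27 (13.7% of genes with a peak). In 3 of them, at rps-10, rps-12 and rps-26, it was a small nucleolar RNA gene, a class of RNA that guides modification of ribosomal RNA. Peak lists give no direction, so which of the genes at a shared summit EFL-1 occupancy belongs to cannot be told apart.

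**Figure D5:**
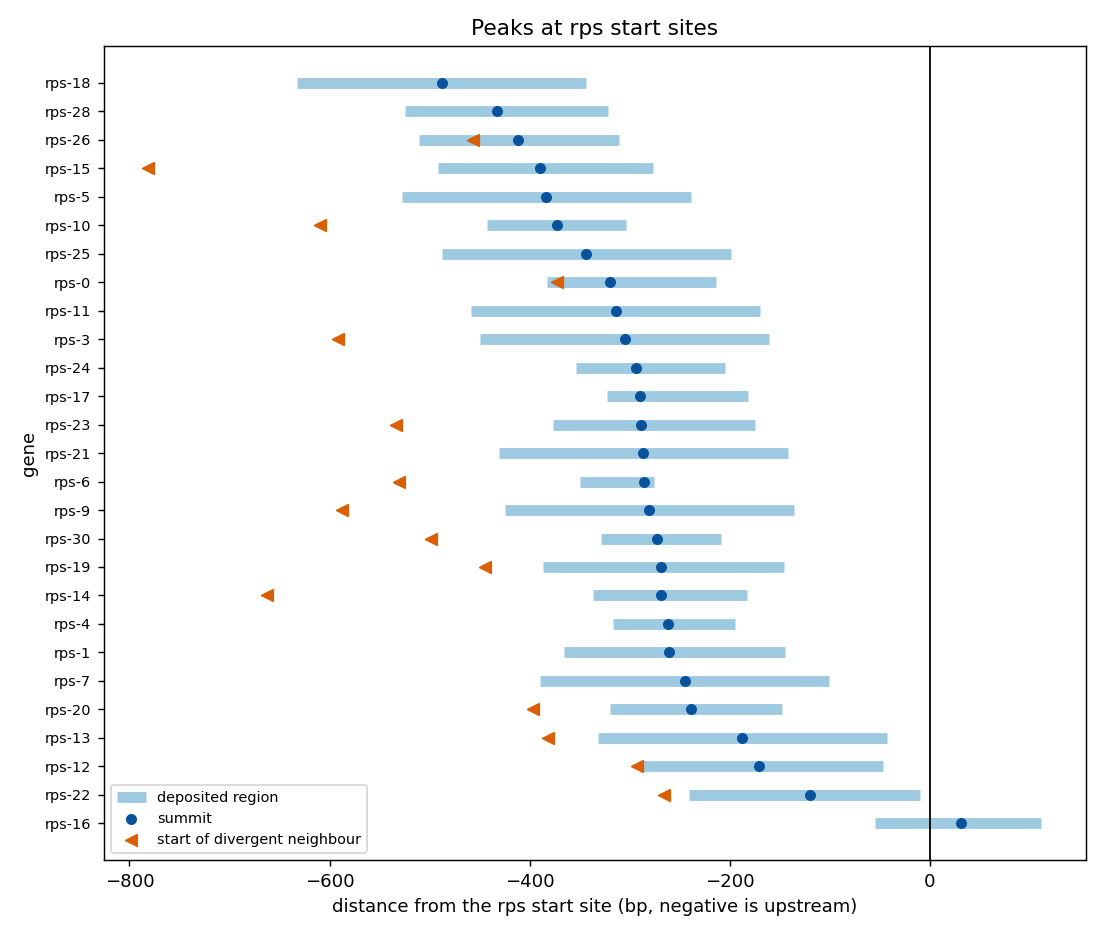
Position of each promoter peak relative to the rps start (vertical line at 0, negative is upstream, in bp), with the deposited region as a bar, its summit as a dot and the start of a divergent protein-coding neighbour as a triangle. Most summits fall between 200 and 400 bp upstream, and at 15 of the 27 genes a divergent start lies on the far side of the summit.

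The 4 rps genes without a promoter peak were rps-2, rps-8, rps-27 and rps-29. The first encodes uS5 at the mRNA entry site. Near its start the joint list, which holds 30000 regions and so includes background, had a region 263 bp upstream with a signal of 25.2 (rank 4979, replicates 10.1 and 12.9). That is below the lowest optimal peak. The nearest optimal summit was 1247 bp downstream, past the 3′ end of the gene, with a signal of 104. At rps-8 the joint list had a region 489 bp downstream with a signal of 31.9 (rank 3667). The nearest optimal summit was 690 bp downstream, past the 3′ end of the gene, with 61.3. The replicate values of 37.9 and 24.6 for the joint region came from regions that also overlap that optimal peak.

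The other 2 missed the window by a short distance. At rps-29 the nearest optimal summit was 518 bp upstream, with a signal of 65.2 (38.2 in replicate 1 and 30.1 in replicate 2), and it was counted for the divergent snt-2, for a synaptotagmin. At rps-27, which encodes a zinc finger protein, it was 584 bp upstream with 53.3 (33.8 and 30.6) and was counted for the divergent picd-1. Just inside the window stood rps-28 at 433 bp and rps-18 at 488 bp. The signals of all 4 lay within the range of the rps peaks. Within 500 bp of the rps-27 start the joint list had no summit, and near the rps-29 start it had one with a signal of 16.3 (rank 9727).

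By chromosome, a promoter peak was found at 8 of 8 rps genes on chromosome I, 1 of 1 on II, 8 of 9 on III, 8 of 10 on IV and 2 of 3 on V. Over all genes the share with a promoter peak was 18.3% on I, 12% on II, 18.7% on III, 11.9% on IV and 6.61% on V. No rps gene lies on X, where the share was 1.17%. Of the 31 rps genes, 17 were on I and III, the chromosomes with the highest shares. Any part of the chromosome in the rps count was not tested.

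Within 100 bp of the summit, 3 of the 27 rps peaks (11.1%) held an E2F core, searched on both strands in the forms TTCCCGC, then TTCGCGC, then TTGCCGC and finally TTGGCGC. The share was 29.7% over all nuclear optimal peaks, 31.6% over those within 500 bp of a start and 11.8% over rpl genes. The 3 were rps-5, rps-12 and rps-17, all genes for head proteins. One of them had the strongest rps peak, at 501, and the others had 64.1 and 102, so a core went with no particular strength. The word TTTGAA, or TTCGAA, which is its own reverse complement, stood in 13 (48.1%, beside 58.7% of optimal peaks and 60.9% of those within 500 bp of a start). Their median signal was 114, and that of the 14 without was 107. TATAAA stood in 4 (14.8%, beside 16.3% of optimal peaks and 17% of those within 500 bp of a start). The median GC content of the rps windows was 42.3%, and that of the optimal peaks 38.3%. A match is a string of letters and no measured site, and no match says nothing about how EFL-1 was recruited.

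Because few rps windows held an E2F core, words of 8 bases were counted on both strands within 100 bp of the summits. This search, and each word below, was chosen after the values were seen, so the rps counts are descriptions, set beside the counts in other peaks. Of all words, 14 stood in at least 5 rps windows and in at most 2% of optimal peaks. At least 1 of the 14 was in 20 of the 27 rps windows (74.1%), in 16 of 31 rpl windows that are not shared with an rps gene (51.6%) and in 265 optimal peaks (9.46%). The words were chosen for standing in several rps windows and in at most 2% of optimal peaks, which include the rps and rpl windows. Both the 74.1% and the 9.46% were therefore shaped by that choice. The rpl windows entered it only through the cap on optimal peaks.

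The words fell into 6 groups by overlap. The longest shared run, 16 bases and marked as the second run of capitals in rps-22, was also in the windows of rps-0, rps-20 and rps-30. It stood in 9 optimal peaks (0.321%) and at 16 places in the genome, 9 of them within 100 bp of an optimal summit. Of the 16 places, 7 were within 500 bp of a start of an rps or rpl gene, which besides the 4 rps genes were rpl-7A, rpl-13, rpl-32 and rpl-39. The rps-3 window holds the first 14 of these bases, and a part of them again in the other orientation. The word GCAGCCAA was in 6 rps windows and 22 optimal peaks (0.785%), and GCTGCGTA was in 6 rps windows and 21 optimal peaks (0.749%). In rps-14 both words overlap in a single run that occurs once in each orientation.

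Another run, of 12 bases and marked at the start of the capitals in rps-23, was shared by rps-10, rps-13, rps-17 and rps-23. It was in 16 optimal peaks (0.571%), 4 of them at rpl genes, and at 32 places in the genome. Of those places 16 were within 100 bp of an optimal summit and 9 were near an rps or rpl start. A run of 13 bases, the second run of capitals in rps-11 and in rps-25, was shared by rps-7, rps-11, rps-25 and rps-30 and was in 35 optimal peaks (1.25%) and at 159 places in the genome. The word GGCCTAAA was in 5 rps windows, at rps-4, rps-6, rps-9, rps-26 and rps-28, and in 9 of the 31 rpl windows (29.0%), beside 1.57% of optimal peaks. The 2 remaining groups were single words with lower rpl counts than GGCCTAAA. ACACACGC was in 5 rps windows, 0 of the 31 rpl windows and 0.821% of optimal peaks. CTCGTTTC was in 5 rps windows, 3 of the 31 rpl windows (9.68%) and 1.93% of optimal peaks.

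A gapped word was noticed in the windows of rps-5, rps-9, rps-11 and rps-25, and its letters were taken as the bases from a shared AAAGGC on, with N where the windows differ. This gave AAAGGCNCNNCGANTT, with 12 fixed bases. It was in no other rps window and in none of the 31 rpl windows. Of all optimal peaks 9 held it (0.321%), and it occurred at 27 places in the genome, of which 9 were within 100 bp of an optimal summit. These counts include the 4 windows from which the letters were read. A run of 11 bases that overlaps it in rps-11, TTAAAGGCGCA, was in 184 optimal peaks (6.57%) and at 2354 places in the genome. The 4 rps genes with the gapped word had signals of 64.1, 50.4, 47.8 and 46.2 in the optimal list, and the last 3 were the lowest of all rps peaks.

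Other genes of protein synthesis are given for scale, each beside the 10.9% of all genes. Of 47 rpl genes 34 had a promoter peak (72.3%), with a median signal of 115, and the strongest were rpl-3 at 2554 and rpl-35 at 2011. The rps and rpl medians were therefore close, while no rps peak came near the highest rpl peaks. Of 31 eif- and eef- genes for translation factors 18 had one (58.1%), the strongest at eef-2 with 790 and at eif-3.C with 701. Genes of the mitochondrial ribosome had fewer, 6 of 29 mrps genes (20.7%, mrps-16 with 145 and mrps-6 with 140) and 13 of 41 mrpl genes (31.7%, mrpl-28 with 191 and mrpl-55 with 147).

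Of 6 partners of the cytosolic ribosome 4 had a promoter peak. They were ubq-2 at 143 and ubl-1 at 97.0, which encode ubiquitin or a ubiquitin-like protein fused to a ribosomal protein, the stalk protein gene rla-1 at 94.4 and the scaffold gene rack-1 at 68.5. The stalk genes rla-0 and rla-2 had none. Of 23 ribosome assembly genes 12 had one, the strongest being dkc-1 at 1128, for the pseudouridine synthase dyskerin, nol-58 at 601 and nol-10 at 182, while pro-2 and pro-3 had none. Of 15 genes of the TOR pathway, which controls ribosome production, 4 had one, the strongest being the cap-binding factor gene ife-3 at 169, rheb-1 at 120 and daf-15 at 91.2. Neither let-363, which encodes the TOR kinase, nor rict-1 had one.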

How the data were processed

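EFL-1 ChIP-seq peak lists on ce11 were used for 2 biological replicates. The signal value of each region is the authors' deposited measure of strength; its scale, the peak caller, the reproducibility threshold and the read depth were not given in the sources used. Per the records deposited with the samples, the optimal list (2825 peaks, of which 2802 nuclear) derives from the replicate lists and a joint list, each of 30000 regions with background included, by an irreproducible discovery rate.

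Start sites were the 29314 distinct 5′ ends of protein-coding transcripts of Ensembl release 115 (WBcel235, the same assembly as ce11), and sequences were read from the RefSeq WBcel235 genome. The summit was the region start plus the deposited offset. A gene with several promoter peaks kept the strongest, and distances are to the nearest start of the gene. A replicate's value is its strongest region overlapping the optimal peak by at least 1 bp. Shares carry exact Clopper-Pearson 95% intervals, which cover counting error only. With 1 group no test was possible, so all comparisons are descriptions, and the labels call the replicates biological without naming separate cultures. Python 3.11.15, pandas 2.3.3, numpy 2.4.6 and scipy 1.17.1 were used, and the peak assignment was tested on simulated data.

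The members and the gene lists were chosen with earlier results of these data known. Named by rule were all rps genes, the 2 strongest peaks of each other family, and the 3 strongest and first 2 members without a peak of each hand-written list. The rack-1 value, fib-1, and the printed windows and words beyond the E2F cores were chosen after values were seen. Of 27 listed assembly genes 23 were found in the annotation. Alternatives were other windows, a stricter and a longer peak list, nearest or outermost starts, other motif windows and leaving out each replicate. The lists on build ce10 were not used.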

Additional observations from a re-analysis of the deposited data

How the results depend on the processing

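Of 58 values recomputed under alternatives, 38 stayed near the main value. For counts this meant within 1.5 times the count. For median signal and median distance it meant within the standard deviation of the 2 values from the replicate lists. For signal that was 9.34, on the scale of the replicate lists, which may differ from that of the optimal list. The count of 38 is therefore no measure of replicate spread for the signal. A window of 200 bp left 4 rps genes with a median signal of 215 and a distance of 146 bp, of which 3 were upstream, 3 had a divergent start, 3 were the nearest gene and 4 were in both replicates. A window of 1000 bp gave 30 genes and a median distance of 269 bp. Of those 30 genes, 23 had the strongest summit upstream, against 26 of 27 in the main setting. The optimal peaks at or above the median signal left 18 genes, with a median signal of 151 and a distance of 280 bp. Of these 18 genes, 17 had an upstream summit and 10 were the nearest gene. The 5000 strongest joint regions gave a median signal of 102. Nearest starts alone left 16 genes, a median signal of 97.2 and 15 upstream summits. An E2F core with 1 more T left 1 gene. Leaving out a replicate meant taking the 2802 strongest nuclear regions of the other replicate's list, which includes background. No new reproducibility threshold was applied. Leaving out each replicate in turn gave 26 to 28 genes, medians of 49.5 to 59.8 on each replicate's own scale and 286 to 296 bp, 25 to 27 upstream summits, 16 to 16 divergent starts, 14 to 15 nearest genes and 25 to 26 in the other list. Without replicate 1, rps-29 gained a peak and rps-7 and rps-18 lost theirs; without replicate 2, rps-8 and rps-29 gained one and rps-25 lost its own. The cause of these shifts was not tested. In the 8 alternatives that reassign peaks, rps-16 and rps-22 kept one throughout, and 10 genes, these included, kept one in all but the 200 bp window. No paired analysis was possible because there is a single group. The unknown read depth limits what a missing peak shows.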
